A study of Homo sapiens with 3 samples.

Results

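The nuclear-encoded subunits of the mitochondrial respiratory chain and ATP synthase were examined in WDR5 knockdown cells. The members were all array features whose only gene symbol belonged to a listed gene family. The families were NDUFA, NDUFB, NDUFC, NDUFS, NDUFV, UQCR, COX4 to COX8, ATP5F, ATP5M, ATP5P and SDH. Membership went by name and not by measured values, although the choice was made with earlier results of these data known. This rule found 81 genes among the 18155 genes with a probe set of a single symbol, and 184 probe sets among 49293. Of the 81 genes, 78 had at least 1 probe set above the intensity filter (152, the median over all probe sets), against 11501 of the 18155 genes in all. These were 35 genes of complex I, 3 of complex II, 8 of complex III, 14 of complex IV and 18 of ATP synthase.

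UM-UC-3, a human bladder cancer cell line, received 1 of 3 siRNAs by Lipofectamine transfection at 75 nM: si-WDR5-2, si-WDR5-3 or a control siRNA. RNA was taken 48 h later and hybridised to Affymetrix PrimeView arrays, with 1 array for each of the 3 conditions and therefore no replicates, so no difference here carries a test. WDR5 is a scaffold protein of the histone methyltransferase complexes that methylate lysine 4 of histone H3. The target position in WDR5 is listed as 999 for si-WDR5-2 and 585 for si-WDR5-3, and was not checked against the WDR5 sequence. The siRNA sequences are shown because they are the only designed difference between the 3 arrays, with the paired bases in capitals and the overhang in lower case.
control siRNA: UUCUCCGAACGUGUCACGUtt
si-WDR5-2: GCUCAGAGGAUAACCUUGUtt
si-WDR5-3: CCCAGUCCAACCUUAUUGUtt

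Oxidative phosphorylation takes electrons from NADH at complex I and from succinate at complex II, passes them through ubiquinone, complex III and cytochrome c to complex IV, and uses the proton gradient built on the way to drive ATP synthase. Most subunits are encoded in the nucleus and imported, while a few, including the hydrophobic cores of complexes I, III and IV, are encoded in mitochondrial DNA. Nuclear respiratory factors (NRF1 and the ETS factor GABP) and YY1 are known to bind the promoters of many of these genes. Complex II is the exception in its origin, since all of its subunits are nuclear-encoded, and it is also an enzyme of the tricarboxylic acid cycle.

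Promoter sequence was set beside the expression data for the 66 members with an entry in the RefSeq promoter table (GRCh38.p14). The 250 bases upstream of the start were searched on both strands for 3 motifs. The NRF1 motif, GCGCA and GCGC separated by any 1 base, was found in 14 of the 66 member promoters (21.2%) and in 5.53% of all 27305 promoters of the same length. The GABP/ETS motif CCGGAAGT was found in 10 (15.2% against 3.64%) and the YY1 motif AAGATGGCG in 1 (1.52% against 0.641%). At least 1 of the 3 motifs was present in 23 member promoters (34.8%, against 9.27%), and no motif contains another. A match describes the letters and does not show a bound site. The windows of 3 genes are shown: SDHD, the member furthest from control on any array, SDHA, a second subunit of the same complex, and NDUFA8, the member that was highest after si-WDR5-3. Capitals mark the motif matches, which are 1 NRF1 match and 1 GABP/ETS match (on the reverse strand) in SDHD, 4 NRF1 matches in SDHA and none in NDUFA8. SDHD lies on the plus strand and its window is chr11:112086623-112086872. The window of SDHA, also on the plus strand, is chr5:218070-218319, and that of NDUFA8, on the minus strand, is chr9:122159780-122160029.
SDHD: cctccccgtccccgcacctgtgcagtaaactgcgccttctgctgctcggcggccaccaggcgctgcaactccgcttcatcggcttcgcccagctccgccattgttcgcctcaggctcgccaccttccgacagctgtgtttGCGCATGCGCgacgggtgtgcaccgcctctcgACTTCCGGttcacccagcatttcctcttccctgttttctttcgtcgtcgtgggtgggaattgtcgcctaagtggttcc
SDHA: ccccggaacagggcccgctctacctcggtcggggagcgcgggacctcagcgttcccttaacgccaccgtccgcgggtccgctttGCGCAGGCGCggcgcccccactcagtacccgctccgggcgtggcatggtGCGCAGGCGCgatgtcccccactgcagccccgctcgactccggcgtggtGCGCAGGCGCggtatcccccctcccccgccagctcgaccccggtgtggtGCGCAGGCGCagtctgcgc
NDUFA8: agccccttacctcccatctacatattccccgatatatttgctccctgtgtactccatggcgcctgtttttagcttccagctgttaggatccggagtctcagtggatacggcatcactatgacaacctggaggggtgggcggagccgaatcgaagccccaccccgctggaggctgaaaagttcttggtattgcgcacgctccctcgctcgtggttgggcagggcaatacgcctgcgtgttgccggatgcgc

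WDR5 itself had an array intensity of 979 after control siRNA, 211 after si-WDR5-2 and 311 after si-WDR5-3, or 0.215 and 0.317 times the control. Where 3 intensities of a gene are listed they follow this order. The 3 arrays had nearly the same median intensity over all probe sets (149.9 to 151.2). The arrays differed in interferon-induced genes: 12 of the 14 listed passed the filter, and all 12 were higher after si-WDR5-2 (median 4.40 times, range 2.25 to 8.72) and lower after si-WDR5-3 (median 0.612 times, range 0.417 to 0.841). Of the 14 urothelial markers 8 passed the filter, and only KRT18 was bright, at 1708, 1217 and 1858. The rest of those that passed (UPK1A, UPK1B, UPK3A, UPK3B, KRT5, KRT7 and KRT8) read 155 to 276, near the filter. GATA3 and CDH1 lay below the filter on every array. Of 9 markers of other cell types, 6 passed the filter at low intensity (158 to 561). Among these 6, the macrophage gene CD68 read 337, 561 and 306 and the smooth muscle gene ACTA2 read 179, 240 and 269. The leukocyte gene PTPRC lay below the filter, near the floor (49.3 to 64.0). The part of the interferon-induced genes, KRT18, CD68 and ACTA2 in the values below was not tested. In RNA from whole cultures, fewer cells of a kind and less RNA per cell cannot be told apart.

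The subunit genes stayed close to the control with both siRNAs. After si-WDR5-2 the median over the 78 genes was 1.03 times the control (log2 ratio 0.04, SD over genes 0.21), and single genes ranged from 0.645 to 1.46 times. After si-WDR5-3 the median was also 1.03 times (log2 ratio 0.04, SD over genes 0.15), with a range of 0.728 to 1.45 times. Over all 11501 genes the median log2 ratio was -0.02 after si-WDR5-2 and 0.00 after si-WDR5-3, and the SDs were wider, at 0.35 and 0.26. Both comparisons share the single control array, so an error on that array enters both.

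Few subunit genes reached a change of 1.5 times. After si-WDR5-2 no member was higher by at least 1.5 times, against 5.00% of all genes, and 1 member (SDHD) was lower by that much, against 3.35%. After si-WDR5-3 no member passed 1.5 times in either direction, against 2.34% of all genes higher and 1.57% lower. At the smaller fold of 1.2 times, si-WDR5-2 had 8 members higher (17.0% of all genes) and 7 lower (12.0% of all genes). For si-WDR5-3 the same fold gave 2 members higher (11.4% of all genes) and 2 lower (9.50% of all genes). The members within 1.2 times of control were 63 of 78 (80.8%) after si-WDR5-2 and 74 of 78 (94.9%) after si-WDR5-3, where all genes gave 71.0% and 79.1%. These counts rest on gene medians, which can mix bright and dim probe sets. The counts at 1.2 times were not repeated with the brightest probe set of each gene.

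Subunit genes are bright on the array, with a median control intensity of 1628 (180 to 5989) against 293 over all genes, although intensity also depends on the probes. Bright genes as a whole were not steadier than the rest. Among the 1037 genes with a control intensity of at least 1000, 63.4% lay within 1.2 times of control after si-WDR5-2 and 73.2% after si-WDR5-3. The 55 subunit genes in that range gave 83.6% and 92.7%. Past 1.5 times in either direction were 12.2% and 5.01% of the 1037 bright genes, and 0 of the 55 subunit genes. SDHD, the only member past 1.5 times, has a control intensity of 864 and is not among the 55. Members lower by at least 1.2 times after si-WDR5-2 were 7 of all 78 and 2 of the 55.

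**Figure D1:**
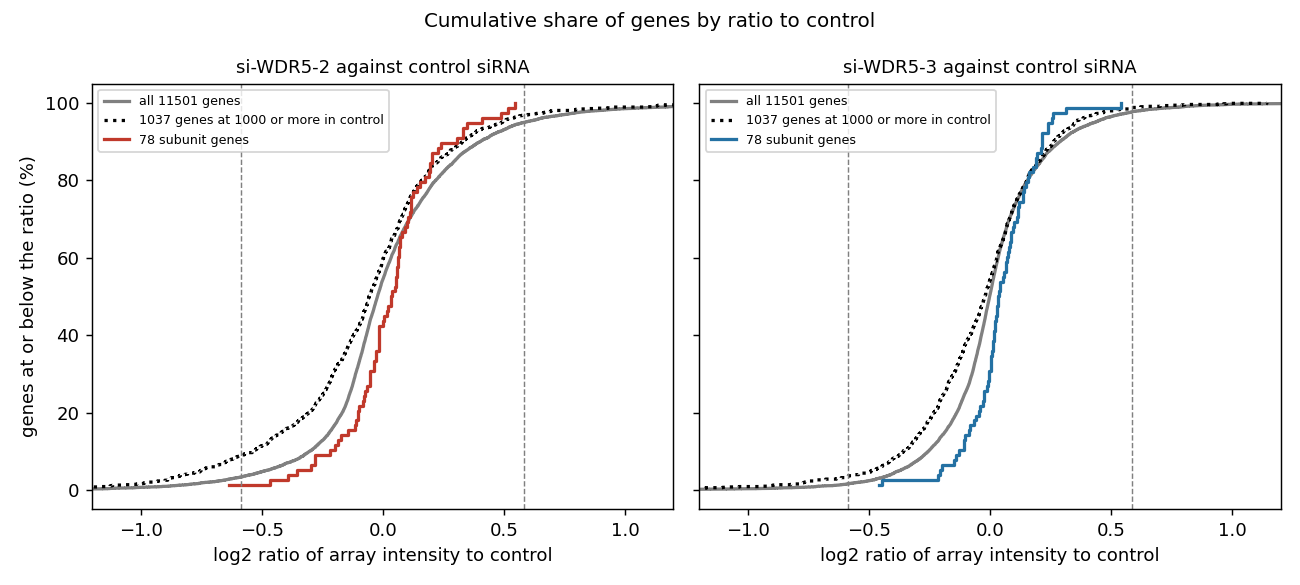
Cumulative share of genes (vertical axis, percent) at or below a given log2 ratio to the control array (horizontal axis), for all 11501 genes (grey), the 1037 genes at an intensity of at least 1000 in the control (dotted) and the 78 subunit genes (coloured), after si-WDR5-2 on the left and si-WDR5-3 on the right. Dashed lines mark 1.5 times in either direction; the subunit curve is the steepest of the 3 in both panels and crosses a dashed line only after si-WDR5-2, for SDHD.

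Complex II held the furthest member. SDHD, which encodes a membrane anchor of succinate dehydrogenase, had an intensity of 864 after control siRNA, 557 after si-WDR5-2 and 943 after si-WDR5-3. These are 0.645 and 1.06 times the control, so that only the si-WDR5-2 array was low. All 5 SDHD probe sets were below control after si-WDR5-2 (0.615 to 0.746 times) and between 0.983 and 1.09 times after si-WDR5-3. The dimmest of them read 308, 230 and 303, and the brightest read 1368, 962 and 1451. Each of the 5 carries a name ending that marks probes shared with other transcripts, and a pair of them had identical values on every array. Counting that pair once gave a log2 ratio of -0.57, short of 1.5 times.

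The other subunits of succinate dehydrogenase did not follow SDHD. SDHA, the flavoprotein that oxidises succinate, stood at 714, 805 and 842, or 1.13 and 1.18 times the control. SDHC, the partner of SDHD in the membrane anchor, stood at 722, 826 and 800, or 1.18 and 1.14 times, and its 4 probe sets were all above control with both siRNAs (1.08 to 1.24 times). Within this enzyme, then, the si-WDR5-2 array had a lower SDHD and higher SDHA and SDHC, and the si-WDR5-3 array had all 3 above control. The SDHA and SDHC probe sets above the filter also carry name endings that mark probes shared with other transcripts. Their values have the same limit as those of SDHD. SDHB was not analysed here.

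**Figure D2:**
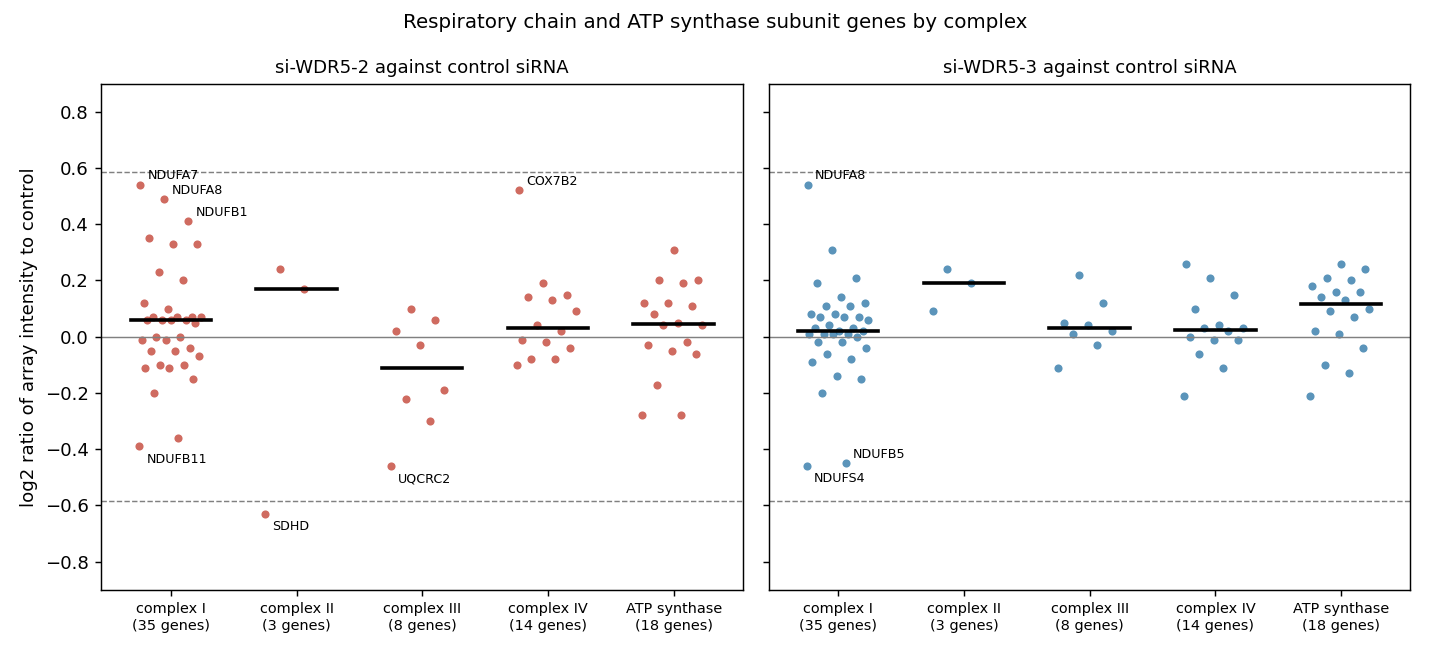
Log2 ratio of array intensity to control (vertical axis) for each of the 78 subunit genes, 1 point per gene, grouped by complex, after si-WDR5-2 on the left and si-WDR5-3 on the right. Black bars are medians over genes and dashed lines mark 1.5 times in either direction; SDHD after si-WDR5-2, at -0.63, is the only point outside them.

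Complex I, the NADH dehydrogenase, had a median of 1.04 times the control after si-WDR5-2 and 1.02 times after si-WDR5-3 over its 35 genes. After si-WDR5-2, 6 of the 35 were higher by at least 1.2 times, near the 17.0% of all genes, and 2 were lower, against 12.0%. After si-WDR5-3, 2 were higher and 2 lower, against 11.4% and 9.50% of all genes. The genes furthest from control encode accessory subunits, which surround the catalytic core.

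NDUFA8, an accessory subunit facing the intermembrane space, was the highest member across the 2 siRNAs. Its intensity was 1591 after control siRNA, 2233 after si-WDR5-2 and 2315 after si-WDR5-3, which are log2 ratios of 0.49 and 0.54. Both knockdown arrays were thus above control by a like amount, as measured by 1 probe set. A further NDUFA8 probe set lay below the filter, at 75.6, 69.6 and 73.8.

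NDUFA7, an accessory subunit of the peripheral arm, read 1004, 1464 and 1165 (1.46 and 1.16 times). NDUFB1, a small subunit of the membrane arm, read 2738, 3640 and 3126 (1.33 and 1.14 times). Both genes were above control on each knockdown array and highest after si-WDR5-2, and each rests on 1 probe set. Of the genes named after their values were seen, NDUFA3 (1832, 2341 and 1940) and the core subunit NDUFV2 (2364, 2973 and 2559) had the same order, at 1.27 and 1.26 times after si-WDR5-2 and 1.06 and 1.08 times after si-WDR5-3.

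The lowest complex I genes by the mean of both log2 ratios differed between the 2 siRNAs. NDUFA5, a subunit of the module that reduces ubiquinone, read 745, 582 and 762 (0.781 and 1.02 times). NDUFB11, a membrane-arm subunit, read 950, 723 and 894 (0.761 and 0.941 times), with its 2 probe sets at 0.737 and 0.786 times after si-WDR5-2. Both were low on the si-WDR5-2 array and near control on the other. NDUFS4, an accessory subunit of the NADH-oxidising module, had the opposite order, at 1267, 1373 and 922 (1.08 and 0.728 times). It was the lowest member after si-WDR5-3.

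NDUFB5, a membrane-arm subunit named here after its values were seen, was above control with 1 siRNA and below it with the other. One of its probe sets read 694, 854 and 510. The other read 1504, 1932 and 1104. The probe sets thus gave the same order, at 1.23 and 1.28 times after si-WDR5-2 and 0.734 times for both after si-WDR5-3. NDUFB6, a neighbouring membrane-arm subunit also named afterwards, was highest on the si-WDR5-3 array, at 2399, 2498 and 2984 (1.04 and 1.24 times).

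Complex I can also be read by its functional groups, which hold some of the accessory genes above. The 6 measured core subunits had a median of 0.954 times after si-WDR5-2 (0.872 to 1.26) and 0.990 times after si-WDR5-3 (0.907 to 1.08). The 8 genes of the NADH-oxidising module had medians of 1.00 and 0.977 times. The 4 measured genes of the ubiquinone-reducing module had medians of 0.954 and 1.01 times. At most 1 gene of each of these groups was past 1.2 times in either direction on either array, and NDUFV2, NDUFS4 and NDUFA5 are those genes.

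**Figure D3:**
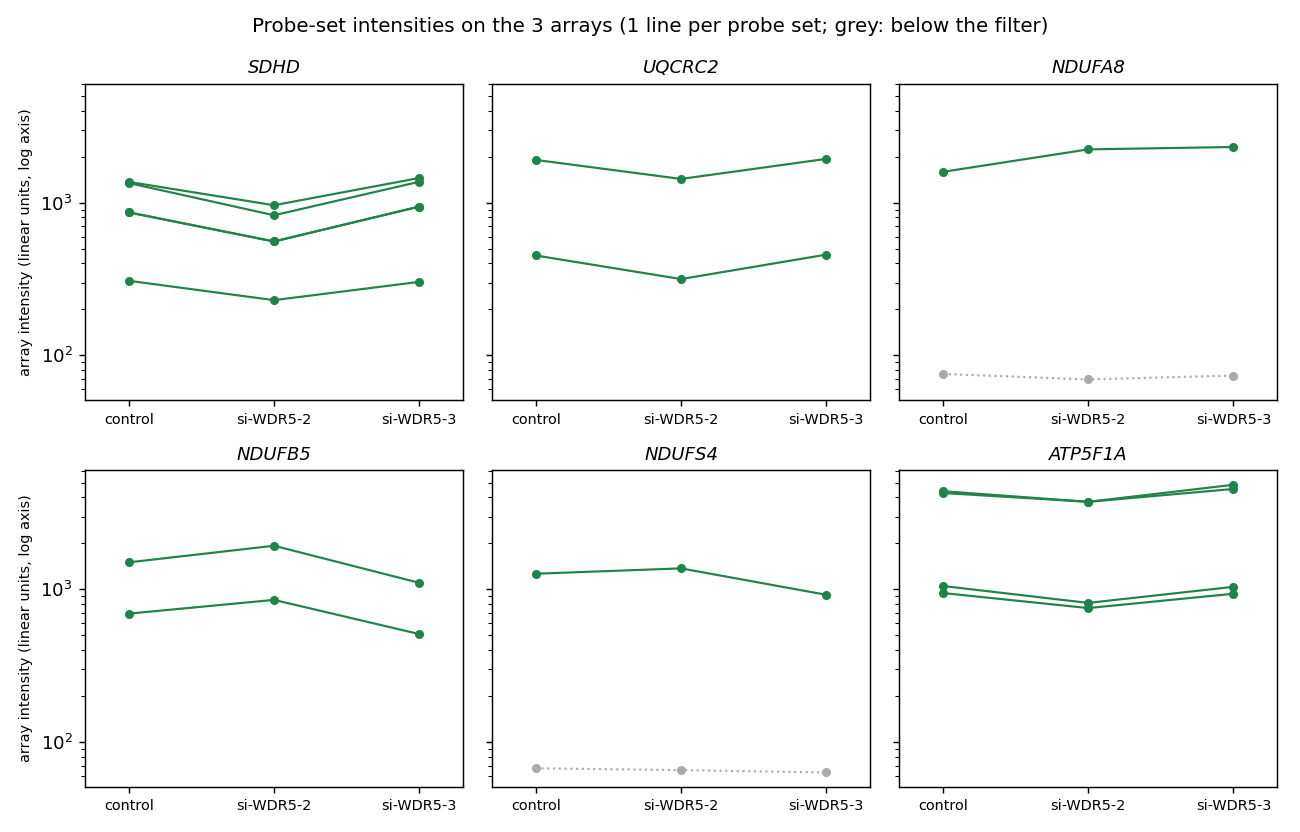
Array intensity (vertical axis, linear units on a log axis) on the 3 arrays for every probe set of 6 subunit genes, with 1 line per probe set and grey dotted lines for probe sets below the filter. Lines above the filter have a like shape within a gene: the 5 SDHD lines, of which a pair coincides, dip after si-WDR5-2, and both NDUFB5 lines peak after si-WDR5-2 and are lowest after si-WDR5-3.

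Complex III, which passes electrons from ubiquinol to cytochrome c, was the only complex whose median lay below control after si-WDR5-2. That median was 0.928 times over 8 genes, with 3 of the 8 above control, where 45.6% of all genes lay above it, and 2 lower by at least 1.2 times. After si-WDR5-3 the median was 1.02 times and 6 of the 8 were above control, where 49.7% of all genes were. The low values after si-WDR5-2 were those of the large core proteins and of UQCRB.

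UQCRC2, a core protein needed for assembly of the complex, had intensities of 927, 672 and 941. This is 0.725 and 1.01 times the control, and its 2 probe sets stood at 0.700 and 0.751 times after si-WDR5-2. UQCRC1, the other core protein, read 431, 351 and 479 (0.860 and 1.08 times), and its 3 probe sets ranged from 0.814 to 0.900 times after si-WDR5-2. UQCRB, a small subunit named after its values were seen, read 189, 154 and 221 (0.815 and 1.16 times). All 3 genes were lowest on the si-WDR5-2 array and at or above control on the si-WDR5-3 array.

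The other measured subunits of complex III are small proteins. UQCRH, the acidic hinge protein at the cytochrome c side, read 1405, 1234 and 1305 (0.878 and 0.929 times). The intronless copy UQCRHL read 1959, 1922 and 2032, and since it is nearly identical in sequence to UQCRH, the values of the 2 genes are uncertain. UQCR10 (3151, 3387 and 3247), UQCR11 (708, 719 and 714) and UQCRQ (4624, 4829 and 4539), small membrane subunits, stayed between 0.982 and 1.07 times the control. UQCRFS1 was not analysed here.

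Complex IV, cytochrome c oxidase, had medians of 1.02 times the control with both siRNAs over 14 genes. A single gene, COX7B2, was higher by at least 1.2 times after si-WDR5-2, and no gene passed 1.2 times in either direction after si-WDR5-3. COX7B2, a paralog of COX7B known from testis, read 429, 615 and 513 (log2 ratios of 0.52 and 0.26) on 1 probe set. COX7C, a small nuclear subunit, read 5989, 6853 and 6947 (1.14 and 1.16 times). COX8A, the ubiquitous form of subunit VIII, read 4102, 4367 and 4383 (1.06 and 1.07 times). These 3 genes were above control on both knockdown arrays.

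COX5A, a subunit on the matrix side, was the lowest gene of complex IV after si-WDR5-3, at 3109, 2938 and 2684 (0.945 and 0.863 times). COX7A2L, which joins complexes III and IV in supercomplexes, read 1357, 1264 and 1261 (0.932 and 0.930 times). COX4I1, the main form of the largest nuclear subunit, read 2580, 2549 and 2612 (0.988 and 1.01 times). The first 2 were below control on both knockdown arrays, and COX4I1 lay on both sides of it.

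Isoforms that replace one another between tissues were compared with their own control only. The common forms COX6A1 (1466, 1452 and 1495) and COX7A2 (3523, 4024 and 3515) were within 1.2 times of control, as was COX6B1 (3973, 4420 and 3955). The COX6A1 probe sets read 8231 and 261 after control siRNA, so the value printed for the gene lies between them and matches neither. COX6A2, the heart and muscle form of COX6A1, read 196, 191 and 201. COX6B2, the testis form of COX6B1, read 220, 209 and 212. Neither moved by more than 1.2 times, and both were close to the filter. The isoforms COX4I2 (89.6, 91.1 and 88.1), COX7A1 (98.5, 97.4 and 93.6) and COX8C (93.3, 93.4 and 92.4) were the 3 members below the filter on their only probe sets. COX4I2 is the lung form of COX4I1, COX7A1 the muscle form of COX7A2 and COX8C a testis form of COX8A. The ratios of these 5 isoforms lay between 0.947 and 1.03 on both knockdown arrays.

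ATP synthase had medians of 1.03 times the control after si-WDR5-2 and 1.08 times after si-WDR5-3 over 18 genes. After si-WDR5-2, 1 gene was higher and 2 were lower by at least 1.2 times. After si-WDR5-3, 14 of the 18 lay above control, where 49.7% of all genes and 69.2% of the 78 members did, and none was past 1.2 times. ATP5MK, a small membrane subunit also known as DAPIT, was the higher gene, at 3922, 4846 and 4494 (1.24 and 1.15 times).

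ATP5F1A, the alpha subunit of the catalytic head, was 1 of the 2 lower genes, at 2123, 1748 and 2175 (0.824 and 1.01 times). Its 4 probe sets ranged from 0.774 to 0.876 times after si-WDR5-2 and from 0.987 to 1.13 times after si-WDR5-3. ATP5F1B, the beta subunit that pairs with it and is named after its values were seen, read 5427, 5190 and 5460 (0.956 and 1.01 times). Both subunits were lowest on the si-WDR5-2 array, by different amounts.

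The 3 genes ATP5MC1, ATP5MC2 and ATP5MC3 encode the same mature c subunit of the rotor ring with different import signals. ATP5MC3 was the other lower gene, at 3813, 3136 and 3483 (0.824 and 0.915 times). ATP5MC2 read 3289, 3791 and 3664 (1.15 and 1.11 times), and ATP5MC1 read 1577, 1546 and 1467 (0.980 and 0.930 times). The 3 genes for 1 protein thus lay on different sides of control, ATP5MC2 above it on both arrays and ATP5MC1 and ATP5MC3 below.

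Other membrane subunits of ATP synthase lay on both sides of control. ATP5ME, subunit e, read 2583, 2953 and 3048 (1.14 and 1.18 times). ATP5MG, subunit g, read 813, 950 and 919 (1.15 and 1.13 times), although its brightest probe set had a log2 ratio of 0.03 after si-WDR5-2. ATP5MJ, a small proteolipid, went the other way, at 1119, 993 and 1079 (0.887 and 0.972 times), and its 4 probe sets spread from 0.709 to 0.932 times after si-WDR5-2. That spread was among the widest over the probe sets of any member.

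Agreement between the probe sets of a gene was the only internal measure of error. For the 45 members with several probe sets above the filter, the median SD over probe sets was 0.05 on the log2 scale after si-WDR5-2 and 0.04 after si-WDR5-3, against 0.08 and 0.07 over all genes. This measures the probes and not the cultures. The other 33 members rest on 1 probe set each.

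Genes that build or regulate the complexes were set beside the subunits, as lists chosen by function. Of 18 complex I assembly factors all passed the filter, and their medians were 1.01 and 0.986 times the control. COA1 (664, 467 and 441, or 0.703 and 0.664 times) and NDUFAF4 (939, 868 and 615, or 0.924 and 0.655 times) were lower by at least 1.5 times after si-WDR5-3. COA1 was low on both knockdown arrays and NDUFAF4 on the si-WDR5-3 array. Of the 6 complex III assembly factors UQCC3 was higher by at least 1.5 times after si-WDR5-2, at 350, 531 and 511 (1.52 and 1.46 times).

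Of the 24 complex IV assembly factors 22 passed the filter, with medians of 1.07 and 0.979 times. SURF1, mutated in Leigh syndrome with complex IV deficiency, read 646, 970 and 972 (log2 ratios of 0.59 and 0.59), so that both knockdown arrays were high. SCO2, a copper chaperone for the enzyme, read 431, 738 and 404 (1.71 and 0.938 times), high after si-WDR5-2 only. SCO2 and TYMP overlap in the RefSeq annotation, which leaves the SCO2 value uncertain. None of the 4 complex II assembly factors or of the 4 genes for ATP synthase assembly and inhibition passed 1.5 times. SURF1, SCO2, UQCC3 and COA1 rest on 1 probe set each.

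Of 6 genes for electron carriers and subunits outside the naming rule, 5 passed the filter. ETFB, a subunit of the flavoprotein that carries electrons from fatty acid oxidation, read 406, 685 and 650 (1.69 and 1.60 times). CYCS, cytochrome c, read 2447, 2679 and 2030 (1.09 and 0.830 times), and CYC1, the cytochrome c1 of complex III, read 3336, 3347 and 3300 (0.997 and 1.01 times); both were named after their values were seen. ETFB was the only 1 of the 5 past 1.5 times.

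Of 13 enzymes of the tricarboxylic acid cycle 11 passed the filter, with medians of 1.02 and 0.978 times. IDH3B, a subunit of the NAD-dependent isocitrate dehydrogenase, read 1347, 862 and 1200 (0.638 and 0.891 times), and its 6 probe sets ranged from 0.611 to 0.771 times after si-WDR5-2. It was the only enzyme of the list past 1.5 times, and it was low after si-WDR5-2, as SDHD was.

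Regulators of respiratory gene transcription gave medians of 0.975 and 0.919 times over the 12 of 14 that passed the filter. None passed 1.5 times, and 3 of the 12 were above control after si-WDR5-3, where 49.7% of all genes were. Of those named after their values were seen, TFAM, which packages and transcribes mitochondrial DNA, read 694, 517 and 513 (0.733 and 0.759 times). TFB2M, a mitochondrial transcription factor, read 964, 767 and 707 (0.795 and 0.733 times). Both were below control on both knockdown arrays. PPRC1, a coactivator related to PGC-1, read 367, 364 and 250 (0.992 and 0.682 times), and was low after si-WDR5-3 only. The array symbols ND1 (4941, 4969 and 4482) and ND4 (11446, 11668 and 11897) stand for complex I subunits encoded in mitochondrial DNA, and their ratios were between 0.907 and 1.04.

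**Figure D4:**
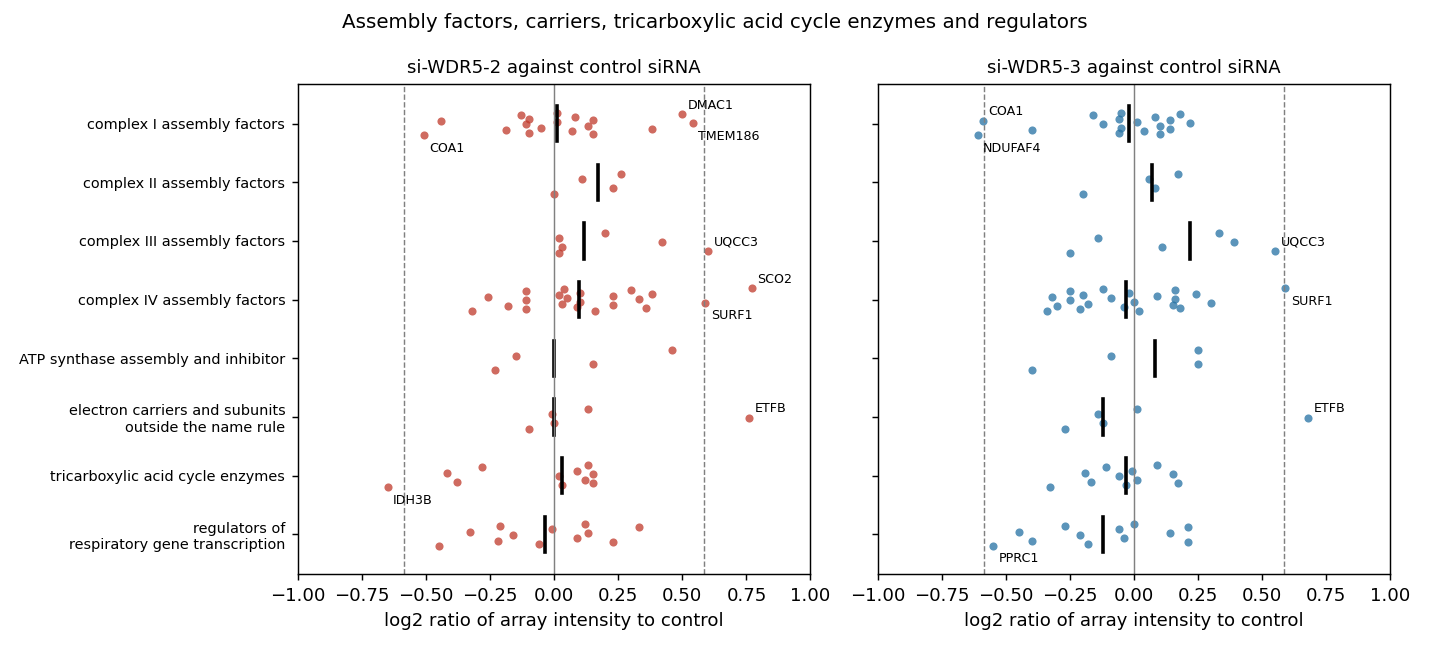
Log2 ratio of array intensity to control (horizontal axis) for the genes of each related list (vertical axis), 1 point per gene, after si-WDR5-2 on the left and si-WDR5-3 on the right. Black bars are list medians and dashed lines mark 1.5 times in either direction; SURF1 and ETFB lie at or beyond the line in both panels, COA1 and NDUFAF4 only after si-WDR5-3, and SCO2, UQCC3 and IDH3B only after si-WDR5-2.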

How the data were processed

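RNA of UM-UC-3 cells was measured on 3 arrays, 1 per condition, and 3 arrays limit the precision. The authors deposited linear intensities covering 49293 probe sets. The submitters' processing notes and the methods name GCOS 1.4 as the software. How it corrected the background and normalized the arrays is not given in the sources used here. No offset was added before log2. Probe sets dimmer on average than the median probe set (a linear intensity of 152) were removed and 24647 remained. The platform annotation gives 45064 probe sets 1 gene symbol, 1756 several and 2473 none, and only those with 1 name a gene. Each gene's log2 ratio is the median of its remaining probe sets, with their range or SD as the error. Printed intensities are medians over the same probe sets, so that a ratio can differ slightly from the ratio of the printed intensities.

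The members and the gene lists were chosen with earlier results of these data known. The named members were those past 1.5 times, the 3 highest and 3 lowest of each complex by the mean of both log2 ratios, the SDH genes and isoform groups, those whose probe sets spanned over 0.5 (log2), and up to 3 genes past 1.5 times in each other list. Alternatives were median centring, quantile normalization, other filters, an offset of 84.8, the brightest probe set and a fold of 1.2. The steps were tested on simulated data. Promoter windows leave out the 50 bases after the start. Python 3.11.15, numpy 2.4.6, pandas 2.3.3 and matplotlib 3.10.9 were used.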

Additional observations from a re-analysis of the deposited data

Results flagged for a closer look

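NDUFB5, a membrane-arm subunit of complex I, lay above control after si-WDR5-2 (log2 ratio 0.33) and below it after si-WDR5-3 (log2 ratio -0.45). Both of its probe sets passed 1.2 times in opposite directions on the 2 arrays. With 1 array per siRNA, the difference between the siRNAs was not tested.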

How the results depend on the processing

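With a fold of 1.2 in place of 1.5, the counts of subunit genes became 8 higher and 7 lower after si-WDR5-2, and 2 higher and 2 lower after si-WDR5-3. The count of lower genes after si-WDR5-2, which was 1 (SDHD), became 0 with an offset before log2. It was also 0 with the brightest probe set of each gene and with identical probe sets counted once. Leaving out probe sets ending in _s_at or _x_at gave 0 as well. This removes all 5 SDHD probe sets and every SDHA and SDHC probe set above the filter, so SDHD and the rest of complex II were not measured there. The last 2 of these settings, and the description of genes at an intensity of at least 1000, were chosen after seeing the data. Without a filter NDUFA8 had a log2 ratio of 0.19 after si-WDR5-2 and 0.25 after si-WDR5-3, and NDUFS4 had -0.27 after si-WDR5-3, because their dim probe sets then entered the median. The median over the subunit genes ranged from 0.02 to 0.05 with each siRNA over all settings, and that over all genes from -0.04 to 0.01 after si-WDR5-2 and from -0.01 to 0.00 after si-WDR5-3. Among the subunit genes checked and WDR5, the only values past 1.5 times were SDHD after si-WDR5-2 and WDR5 with both siRNAs. None of these reversed where measured, which says nothing about the other subunit genes. The assembly factors, carriers, tricarboxylic acid cycle enzymes, regulators and interferon-induced genes were not put through these settings. No paired analysis was possible because each condition has 1 array. Values near the filter are limited by the signal over background, for which no detection calls were used.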

Other observations

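For several subunit genes the brightest probe set lay further from control after si-WDR5-2 than the value over all probe sets, and some are given here. For NDUFC2 and UQCRB this was not so after si-WDR5-3. For NDUFC2, a membrane-arm subunit of complex I, the brightest of 3 probe sets read 2879 after control siRNA, 2049 after si-WDR5-2 and 2719 after si-WDR5-3, or 0.712 and 0.944 times the control, while the gene as a whole stood at 0.927 and 0.944 times. For UQCRB of complex III the brightest read 2169, 1665 and 2264, or 0.768 and 1.04 times, while the gene stood at 0.815 and 1.16 times. For NDUFV3 of complex I the brightest of 3 probe sets read 755, 564 and 544, or 0.747 and 0.720 times, low on both knockdown arrays. The gene as a whole stood at 0.964 and 0.871 times. These genes were chosen after their values were seen.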
